A study of Rattus norvegicus with 4 samples.

Results

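The immunoproteasome and class I antigen presentation genes are 9 of the 16581 genes with a symbol on the array: the immunoproteasome subunit genes Psmb8, Psmb9 and Psmb10, the peptide transporter genes Tap1 and Tap2, the loading factor gene Tapbp, the light chain gene B2m, and Irf1 and Gbp2, a transcription factor and a GTPase gene of the interferon response. The 9 genes were chosen by name with their differences between miR-125a-3p and miR-neg arrays already in view. Those differences are therefore given as a description, and no test is read from them. The rule took every probe whose RefSeq accession belongs to one of the 9 genes, which gave 11 probes, 1 for each gene and a second for Tap1 and Tap2. All 11 were well above background on all 4 arrays, so none of the 9 genes was lost to the filter on dim probes.

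The arrays measured RNA of cultured rat oligodendrocyte precursor cells, isolated from cortex at postnatal day 2 and grown for 3 days with bFGF and PDGF. The miR-125a-3p group (2 samples) received a mimic of that microRNA at 50 nM with a lipid reagent, and the miR-neg group (2 samples) received a negative control RNA in the same way. RNA was taken 48 h after transfection. Each sample went on 1 single-colour array, and strain and sex are not given in the sources used here. The design text says that the samples of a condition are independent but does not name separate animals or cultures, so every standard error and p-value below measures the spread between these samples, which may be technical. The mature microRNA is shown with its seed, bases 2 to 8, in capitals, as RefSeq gives it on GRCr8 (chr1:67350727-67350748, plus strand). The letters of the transfected mimic itself are not given in the sources used here.

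rno-miR-125a-3p: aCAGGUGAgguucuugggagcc

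Class I molecules show fragments of a cell's own proteins to cytotoxic T cells. The proteasome cuts proteins into peptides, the transporter encoded by Tap1 and Tap2 carries them into the endoplasmic reticulum, and tapasin, the product of Tapbp, helps to load them onto a heavy chain paired with the light chain from B2m. Interferon gamma raises most of these genes together and exchanges the catalytic subunits encoded by Psmb5, Psmb6 and Psmb7 for those encoded by Psmb8, Psmb9 and Psmb10. Cells of the oligodendrocyte lineage are known to express little class I at rest and more under inflammation.

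Promoters of this pathway are known for the interferon-stimulated response element (ISRE), bound by IRF factors, the gamma-activated site (GAS), through which interferon gamma acts, and kB sites, bound by NF-kB. Promoter windows of 300 bases, 250 before and 50 after the start, were found in RefSeq (GRCr8) for all 9 genes and searched on both strands for the ISRE core (GAAA, 2 bases of any kind, GAAA; matches may overlap), for the GAS letters TTCNNNGAA and for the kB consensus. The ISRE core was found in 7 of the 9 windows, those of Psmb8, Psmb10, Tap1, Tap2, Tapbp, B2m and Gbp2. It was found in 3.92% of the 33465 windows of the same length. The GAS letters were found in the windows of Psmb8 and Irf1, against 8.87% of all windows, and the kB consensus in those of Tap1, Tapbp, B2m and Irf1, against 7.52%. Psmb9 had none of these matches in its window. A match describes letters and is not a measured binding site.

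Stretches of 50 bases around a match are shown to let the shared letters be compared, with matches in capitals (the ISRE core, and for Irf1 the GAS letters), each read in the direction of the gene. On the minus strand lie Psmb8 (chr20:4657006-4657055), Psmb10 (chr19:50743280-50743329), Tap1 (chr20:4668635-4668684), Tap2 (chr20:4652308-4652357) and Tapbp (chr20:4967871-4967920). On the plus strand lie B2m (chr3:129549160-129549209), Irf1 (chr10:38417772-38417821) and Gbp2 (chr2:234005676-234005725).
Psmb8: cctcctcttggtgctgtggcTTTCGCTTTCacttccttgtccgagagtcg
Psmb10: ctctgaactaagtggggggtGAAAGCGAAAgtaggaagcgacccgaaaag
Tap1: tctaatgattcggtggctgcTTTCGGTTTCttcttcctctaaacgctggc
Tap2: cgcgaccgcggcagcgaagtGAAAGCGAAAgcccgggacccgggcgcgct
Tapbp: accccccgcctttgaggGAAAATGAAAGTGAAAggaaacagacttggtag
B2m: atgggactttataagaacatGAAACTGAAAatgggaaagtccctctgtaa
Irf1: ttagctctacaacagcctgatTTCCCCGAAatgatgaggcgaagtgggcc
Gbp2: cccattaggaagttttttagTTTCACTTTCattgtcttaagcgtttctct

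The ISRE core lay close to the start in Psmb8 (bases -4 to 6), Tap2 (-41 to -32) and Gbp2 (-31 to -22), and in Tapbp 2 matches overlapped between -26 and -11. Psmb10 held 2 separate matches, at -73 to -64 and at -17 to -8, of which the second is shown. In Tap1 and B2m the match lay farther upstream, at -121 to -112 and -150 to -141, with a kB consensus at -55 to -46 and -137 to -128. Tap1 and Psmb9 are read in opposite directions from starts 457 bases apart, and their windows shared 44 bases. The ISRE core and kB consensus of Tap1 lay between these starts, outside the window of Psmb9.

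**Figure D1:**
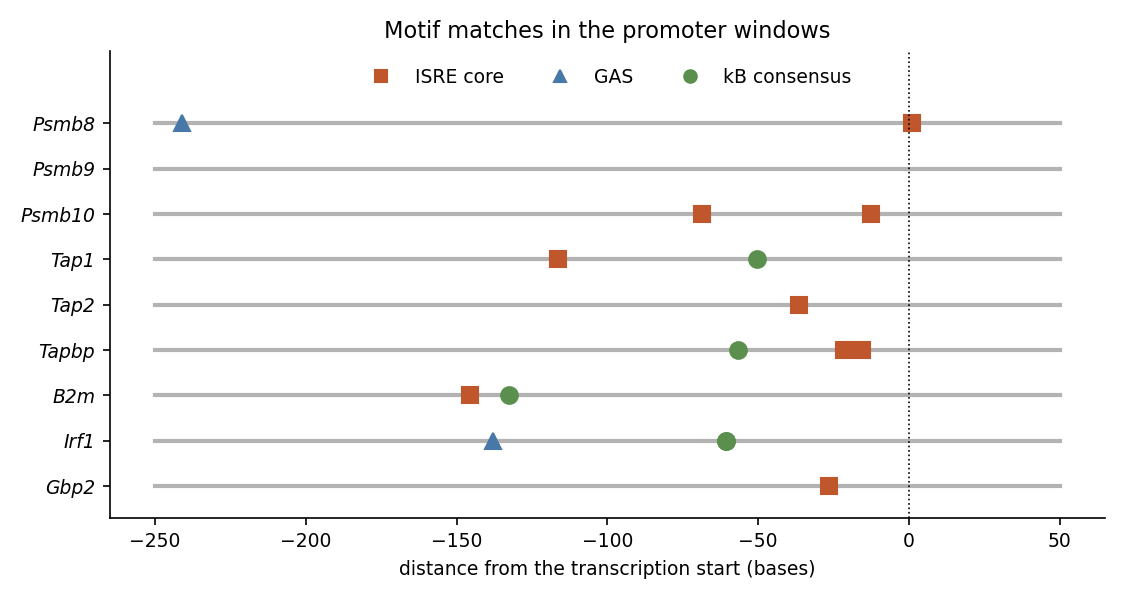
Matches to the ISRE core, the GAS letters and the kB consensus in the promoter windows of the 9 genes; the horizontal axis is the distance from the transcription start in bases, each grey line is 1 window, from 250 bases before the start to 50 after, and each symbol is the centre of a match. Squares (ISRE core) appear in 7 of the 9 windows, and Psmb9 has no symbol.

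The comparison asks how these genes differed after the miR-125a-3p mimic was added. The processed signal, a spot's brightness after subtraction of background, is given for each array, and differences are on the log2 scale after each array's 75th percentile was subtracted. Gbp2 and Psmb8 were about 2.21-fold and 2.04-fold brighter after the mimic, Psmb9, Irf1 and Tap2 were 1.55-fold, 1.53-fold and 1.40-fold brighter, and Psmb10 and B2m were not brighter. In limma, 0 of the 9 genes passed an adjusted p of 0.05 over all 23155 features in the higher direction, where 0.380% of features did, and 5 had an unadjusted p under 0.05 and were higher, against 10.5% of features. For 6 of the 9, both mimic arrays lay above both control arrays, against 28.7% of features. For 1, B2m, both lay below, against 24.1%. These counts come from the values that chose the genes, and nothing is read from them.

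Markers of other cells were compared on the same arrays. The sums of the microglia, astrocyte, and vascular and fibroblast markers were higher on both mimic arrays, as were 28.7% of single features. Sums are in units of each array's 75th percentile, which lay between signals of 679 and 745, and a sum weights the brightest probes most. Of 12 markers of oligodendrocyte precursors (OPCs) tested, 7 lay above 0 and 5 below, with a median of 0.06. In limma 0 of the 12 passed, and 1 higher and 3 lower had an unadjusted p under 0.05, namely Neu4 at 0.37, Pdgfra at -0.37, Vcan at -0.29 and Bcan at -0.28. Their sum was 677 to 730 in miR-neg and 635 to 656 in miR-125a-3p, opposite in direction to their median. Bcan, the brightest of them, weighs most in that sum. Its scaled log2 level was 8.16 and 8.30 in miR-neg and 7.95 and 7.96 in miR-125a-3p. Olig2, which defines the lineage, was well above background and differed by -0.01.

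Of 15 microglia and macrophage markers tested, 10 lay above 0 and C1qa passed at 1.44, and 8 had an unadjusted p under 0.05, all higher, against the 10.5% of features given above. Their sum was 13.0 to 14.4 in miR-neg and 15.2 to 16.1 in miR-125a-3p. Within that list Aif1 was at 1.56, Tyrobp at 1.36 and Cx3cr1 at -0.06, and Ptprc was not well above background on any array. C1qc, counted among the 8, was at 1.68 (SE 0.46). It cleared background on only 2 arrays, so the size of its difference is uncertain. Of 12 astrocyte markers, 11 lay above 0, Aldh1l1 passed at 1.89, and 7 had an unadjusted p under 0.05, all higher. Their sum was 190 to 203 and 220 to 222 in the same order of groups, and Gjb6 was not well above background. Of 9 vascular and fibroblast markers, 7 lay above 0, Tagln passed at 1.21, and 5 had an unadjusted p under 0.05, all higher. Those 5 were Tagln, Col1a1 (1.42), Col3a1 (1.32), Pdgfrb (0.92) and Col1a2 (0.64). Pdgfrb cleared background on only 2 arrays and Col3a1 on 3, so the sizes of their differences are uncertain. The endothelial markers tested, Kdr, Cdh5 and Tek, were at -0.18, 0.05 and -0.01. The sum of the 9 markers was 0.98 to 1.04 and 1.39 to 1.55, and Pecam1, Dcn and Lum were not well above background. Of 8 neuron markers, 6 lay above 0, 0 passed and 2 had an unadjusted p under 0.05, both higher, with sums of 11.6 to 12.9 and 12.4 to 13.1 and Slc17a6 not well above background. The part of these cells in the values of the 9 genes was not tested, and in bulk RNA more cells of a type cannot be told apart from more RNA per cell. All 4 arrays shared a slide and a scan. Place along 1 axis of the slide ran with the group, and the effects of place and mimic cannot be told apart.

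Psmb8 encodes the immunoproteasome subunit that stands in for the product of Psmb5. In miR-neg its probe gave signals of 165 and 173, and in miR-125a-3p of 335 and 353. Both mimic arrays lay well above both control arrays. The scaled log2 level went from -2.07 ± 0.15 to -1.04 ± 0.03 (SD, n = 2 each), a difference of 1.03 (SE 0.10, 95% interval from limma 0.74 to 1.31). Its probe is printed in 2 spots on each array, and the spots of an array differed by at most 0.20 on the log2 scale. With normexp, another correction for background chosen after seeing the data, the difference was 0.74.

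Psmb9 encodes the subunit that stands in for the product of Psmb6. It gave signals of 3822 and 4140 in miR-neg and 5677 and 6618 in miR-125a-3p. The groups did not overlap, and the second array was the brighter in both. The scaled log2 level was 2.48 ± 0.18 in miR-neg and 3.11 ± 0.13 in miR-125a-3p (SD, n = 2 each), a difference of 0.63 (SE 0.13, 95% interval 0.26 to 0.99).

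Psmb10, whose product stands in for that of Psmb7, did not share this pattern. Its signal was 20475 and 20234 in miR-neg and 19789 and 19840 in miR-125a-3p. On the scaled log2 values both mimic arrays lay between the control arrays. The difference was -0.03 (SE 0.08, 95% interval -0.27 to 0.20), and no spot of the array was saturated.

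The constitutive catalytic subunits that these products replace were measured on the same arrays and were not among the genes chosen. Their log2 differences were 0.10 for Psmb5 (SE 0.08, adjusted p = 0.512 in limma), 0.09 for Psmb6 (SE 0.10, adjusted p = 0.672) and 0.06 for Psmb7 (SE 0.08, adjusted p = 0.713). The intervals reached up to 0.31, 0.36 and 0.27. Over the 14 genes of the constitutive proteasome core, the log2 difference lay between -0.15 (Psma4, adjusted p = 0.422) and 0.10 (Psmb5), with a median of 0.04 beside 0.01 over all features. In limma 0 of the 14 passed and 0 had an unadjusted p under 0.05.

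Genes of the proteasome activators and assembly factors, which cap or build the core, numbered 8 tested of 10 listed. In limma 0 passed, and 2 had an unadjusted p under 0.05. One was Psme1, an activator subunit that interferon gamma also raises, with signal higher on both mimic arrays and a log2 difference of 0.43 (SE 0.12, adjusted p = 0.178). Its partner Psme2 was at 0.11 (SE 0.08, adjusted p = 0.51). The other was Psme4, a nuclear activator, at -0.26 (SE 0.07, adjusted p = 0.19), and Psmg2, an assembly chaperone, was at 0.13. The median of these 8 genes was 0.09.

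**Figure D2:**
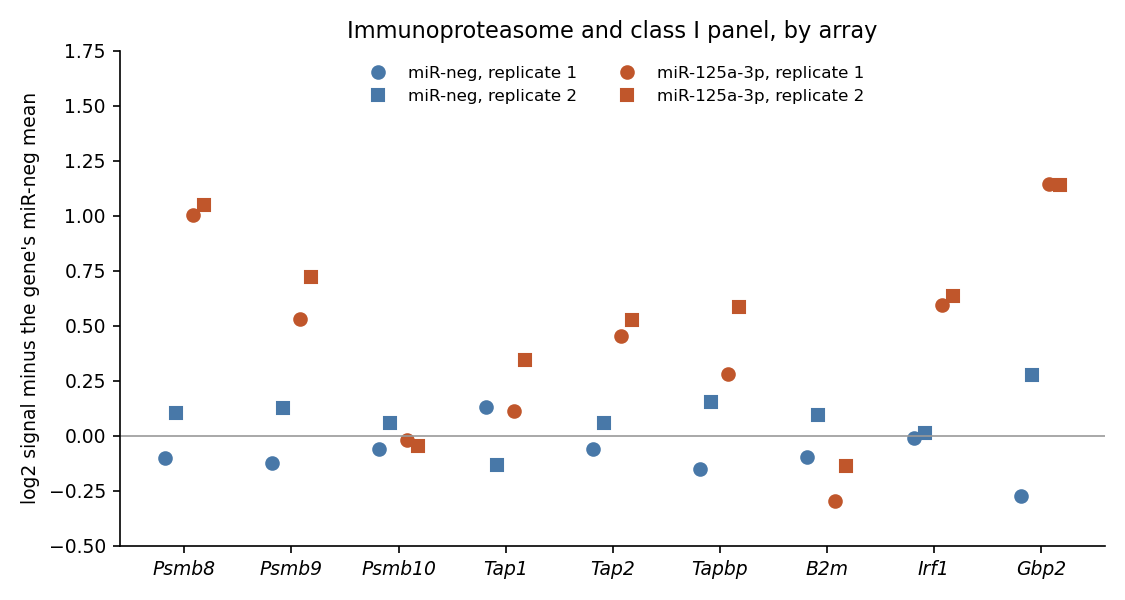
Each of the 9 genes on each of the 4 arrays; the vertical axis is the scaled log2 signal minus the gene's own mean over the 2 miR-neg arrays, circles are replicate 1 and squares replicate 2. The 2 miR-125a-3p arrays lie above both miR-neg arrays for 6 genes, below both for B2m, between them for Psmb10, and for Tap1 1 of the 2 lies between them and 1 above.

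Tap2 encodes a chain of the peptide transporter. The probe that stood for it gave signals of 498 and 492 in miR-neg and 669 and 718 in miR-125a-3p. Both mimic arrays were the brighter. The log2 difference was 0.49 (SE 0.09, 95% interval 0.25 to 0.73). A second probe gave signals of 319 and 290 in miR-neg and 388 and 435 in miR-125a-3p, a log2 difference of 0.44, so the probes of Tap2 gave like values.

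Tap1 encodes the other chain. Its brighter probe gave signals of 259 and 197 in miR-neg and 241 and 289 in miR-125a-3p, so the groups overlapped. The log2 difference was 0.23 (SE 0.14, 95% interval -0.16 to 0.62). It was 0.10 without miR-neg replicate 2 and 0.36 without miR-neg replicate 1, and 0.13 with normexp. The second probe gave 81.3 and 61.2 in miR-neg and 73.4 and 72.1 in miR-125a-3p, a log2 difference of 0.05. Tap1 and Psmb9 start from the same short stretch of chromosome 20, and their differences were 0.23 and 0.63.

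Tapbp, the gene of tapasin, gave signals of 268 and 301 in miR-neg and 340 and 430 in miR-125a-3p. The groups did not overlap, but the arrays within each group lay far apart. The log2 difference was 0.43 (SE 0.17, 95% interval -0.03 to 0.89), and it ranged from 0.28 to 0.59 when each array was left out in turn. Tapbpl, a tapasin-like peptide editor, was at 0.18 (SE 0.21, adjusted p = 0.699 in limma).

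Of the other genes for peptide trimming, loading and folding in the endoplasmic reticulum, 17 of 19 listed were tested. The median log2 difference was -0.03, 0 passed in limma and 2 (Canx and Calr) had an unadjusted p under 0.05. Canx, which encodes the folding chaperone calnexin, had the largest difference, 0.50 (SE 0.08, adjusted p = 0.095), and was higher on both mimic arrays. Calr, the gene of the related chaperone calreticulin, was lower on both, at -0.26 (SE 0.08, adjusted p = 0.22), as was Uggt1, a glycoprotein folding sensor, at -0.34 (SE 0.13, adjusted p = 0.272). With normexp Calr was at -0.25 and Uggt1 at -0.12. Pdia3, an oxidoreductase of the loading complex, was at -0.13 (SE 0.09, adjusted p = 0.503).

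B2m encodes the light chain of every classical class I molecule. It gave signals of 18144 and 18874 in miR-neg and 14845 and 16978 in miR-125a-3p. Both mimic arrays lay below both control arrays. The log2 difference was -0.22 (SE 0.11, 95% interval -0.53 to 0.10), and it was -0.31 without miR-neg replicate 1 and -0.12 without miR-neg replicate 2.

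The heavy chains and class I-like molecules numbered 24 tested of 49 listed, 35 of which had a probe. Probes for RT1 genes, the rat class I family, can share targets, since these genes are close copies of each other, so their values are uncertain gene by gene. Of the 22 RT1 genes tested, 14 lay above 0 and 8 below, with a median of 0.04, and 20 lay within 0.35 of 0. The classical genes RT1-A1, RT1-A2 and RT1-A3 were at -0.17 (SE 0.14), -0.20 (SE 0.18) and -0.11 (SE 0.15), and on each the mimic arrays overlapped the controls. RT1-M3-1 stood apart at 1.06 (SE 0.17, adjusted p = 0.0899 in limma), and at 0.76 as the mean of its probes. Among class I-like genes, Cd1d1, whose product presents lipids, was at 0.78 (SE 0.11, adjusted p = 0.0751) and Fcgrt, the neonatal Fc receptor, at 0.98 (SE 0.18, adjusted p = 0.106). With normexp these were 0.24 and 0.33. In limma 0 of the 24 passed and 3 had an unadjusted p under 0.05, the genes RT1-M3-1, Cd1d1 and Fcgrt.

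**Figure D3:**
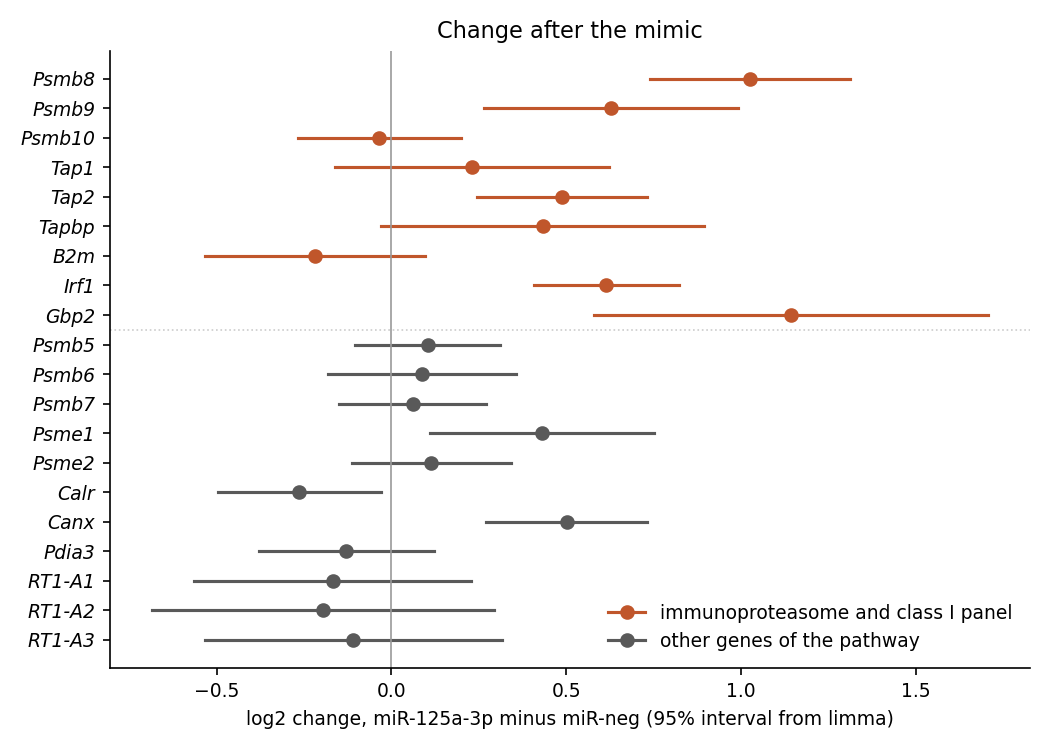
The log2 difference between miR-125a-3p and miR-neg for the 9 genes (orange) and 11 other genes of the pathway (grey); points are the fitted difference and lines its 95% interval from limma, with 2 arrays per group. Gbp2 and Psmb8 lie above 1, while Psmb5, Psmb6 and Psmb7 lie near 0.

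Irf1 encodes a transcription factor that binds ISRE letters and is itself known to be induced through a GAS. It gave signals of 864 and 799 in miR-neg and 1236 and 1302 in miR-125a-3p. The arrays of a group lay close together and the groups were far apart. The scaled log2 level was 0.22 ± 0.02 in miR-neg and 0.84 ± 0.03 in miR-125a-3p (SD, n = 2 each), a difference of 0.62 (SE 0.08, 95% interval 0.41 to 0.82). This difference moved least of the 9 between settings relative to its size, from 0.59 to 0.64.

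Gbp2 encodes a guanylate-binding protein, an interferon-induced GTPase. It gave signals of 95.7 and 127 in miR-neg and 241 and 245 in miR-125a-3p. Both mimic arrays lay above both controls, and the controls were far apart. The scaled log2 level was -2.69 ± 0.39 in miR-neg and -1.54 ± 0.0042 in miR-125a-3p (SD, n = 2 each), a difference of 1.14 (SE 0.21, 95% interval 0.58 to 1.71). It was 0.87 without miR-neg replicate 1, 1.42 without miR-neg replicate 2 and 0.81 with normexp.

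Other interferon-inducible GTPases numbered 5 tested of 15 listed, 7 of which had a probe. In limma 0 of the 5 passed and 1 had an unadjusted p under 0.05. That was Gbp5, higher on both mimic arrays at 0.46 (SE 0.16, adjusted p = 0.249), and at 0.22 with normexp. Irgm, an immunity-related GTPase well above background on 3 of the 4 arrays, was at 0.74 (SE 0.41, adjusted p = 0.407) with overlapping groups. With normexp Irgm was at 0.12. Mx1, an antiviral GTPase raised mainly by type I interferon, was at -0.21 (SE 0.13, adjusted p = 0.446). The median of the 5 was -0.02.

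Regulators of class I and interferon genes numbered 28 tested of 33 listed. In limma 0 passed and 2 had an unadjusted p under 0.05, and the median was -0.01. Irf5 was lower on both mimic arrays at -0.58 (SE 0.14, adjusted p = 0.156), and at -0.23 with normexp. Socs1, a feedback inhibitor of cytokine signals, was higher on both at 0.41 (SE 0.11, adjusted p = 0.167), and at 0.05 with normexp. Stat2, a transcription factor of the type I response, was at -0.28 (SE 0.11, adjusted p = 0.298). The probe of Ifng itself was not well above background on any array. Nlrc5, a class I regulator, was matched to no probe and was not analysed here.

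Other interferon-induced genes numbered 16 tested of 24 listed, with a median of -0.17, the lowest of these lists. In limma 0 passed, and 1, Isg15, had an unadjusted p under 0.05. Isg15, a ubiquitin-like protein gene of the type I response, was lower on both mimic arrays at -0.76 (SE 0.27, adjusted p = 0.255), and Usp18, which removes its product from proteins, was also lower on both at -0.82 (SE 0.33, adjusted p = 0.286). Bst2, the gene of the antiviral protein tetherin, was higher on both at 0.67 (SE 0.26, adjusted p = 0.273). Not well above background on any array were 7 genes of this list, Ifit1, Ifit3, Oasl, Cxcl9, Cxcl11, Ido1 and Cd274. Of these, Cxcl9, Cxcl11, Ido1 and Cd274 are known to respond to interferon gamma. Cxcl10 was well above background on all 4 arrays, at -0.20 (SE 0.17, adjusted p = 0.573 in limma).

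Class II presentation genes numbered 5 tested of 13 listed, and 6 of the 13, Cd74 among them, were not well above background on any array. RT1-DMa, a chain of the class II peptide exchange factor, was higher on both mimic arrays at 0.59 (SE 0.07, adjusted p = 0.0678 in limma), the smallest adjusted p among all pathway genes. Its partner RT1-DMb was at -0.19 (SE 0.19) and Ciita, the class II transactivator, at -0.10 (SE 0.11), both with overlapping groups. The median of the 5 was -0.04, 0 passed, and 1, RT1-DMa, had an unadjusted p under 0.05.

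In all, 117 of 177 listed pathway genes were tested, and 0 passed over all features in limma, where 0.687% of features passed in either direction. An unadjusted p under 0.05 was found for 12 (10.3%), 8 higher and 4 lower, against 19.5% of all features. With a replicate block in limma, 3968 of the 23155 features and 20 of the 117 pathway genes had an unadjusted p under 0.05. Both mimic arrays lay above both controls for 19.7% of these genes and below for 17.9%, against the 28.7% and 24.1% given above. The count over all features was 159, 88 higher and 71 lower, and under quantile normalization 83, 37 higher and 46 lower. With normexp, 4 of the 117 pathway genes passed, where 6.91% of all features did, and with a variance trend 7 did, where 8.84% of features did. On probes above background on every array, 3 of 113 passed (2.90% of features), and at an adjusted p of 0.1, 4 of 117 did (4.25% of features).

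**Figure D4:**
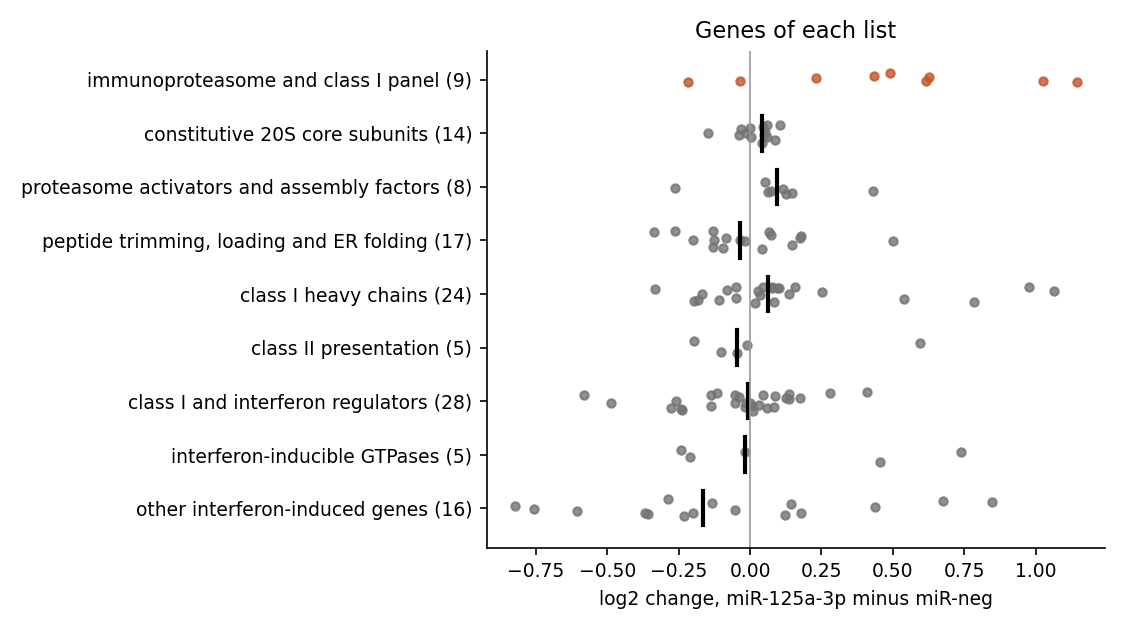
The log2 difference between miR-125a-3p and miR-neg for each tested gene, by list, with the number tested in brackets; each point is 1 gene and black bars are medians, which are left out for the 9 genes of the panel because they were chosen on these values. The constitutive core lies between -0.15 and 0.10, and other interferon-induced genes have a median of -0.17.

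Tap2, Psmb8, Tap1 and Psmb9 are neighbours on chromosome 20 in the GRCr8 table, inside the class II region, and Tapbp lies on the same chromosome. Their log2 differences in that order were 0.49, 1.03, 0.23 and 0.63. On the Psmb9 side the next genes were RT1-DMb (-0.19) and RT1-DMa (0.59), with Brd2, a chromatin reader gene, beyond them at 0.06. On the Tap2 side, RT1-Bb and RT1-Db1 were at -0.01 and -0.04. Values therefore differed from gene to gene along this stretch.

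Motif letters were also set against all genes, leaving out the 9. Of 9583 tested genes with a promoter window, the 274 with an ISRE core had a median log2 difference of 0.0042, with 1 higher and 2 lower past the threshold, and 50.4% lay above 0. All 9583 had a median of 0.02, with 51 higher and 38 lower, and 53.5% lay above 0. For the 690 genes with the GAS letters the median was 0.03, with 3 higher and 1 lower, and 56.4% lay above 0. For the 960 with the kB consensus it was 0.02, with 8 higher and 4 lower, and 54.2% lay above 0. Within the 9 genes, the ISRE core stood in the windows of Psmb8, Gbp2, Tap2, Tapbp, Tap1, Psmb10 and B2m. It was not found in those of Psmb9 and Irf1. Whether the motif bears on the differences of the 9 genes was not tested.

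Gbp2 had the largest difference of the 9. Among 11011 other genes well above background on all 4 arrays, the 5 whose centred values over the 4 arrays lay nearest to those of Gbp2 were Igfbp2, an IGF-binding protein gene (Euclidean distance 0.14 on the log2 scale), Gja1, the connexin gene of astrocytes (0.17), Fn1, the fibronectin gene (0.19), LOC100910973 (0.19) and Shroom3 (0.20). Their log2 differences ran from 1.10 (Shroom3) to 1.25 (Gja1). With 4 arrays this nearness rests mostly on the step between groups.

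**Figure D5:**
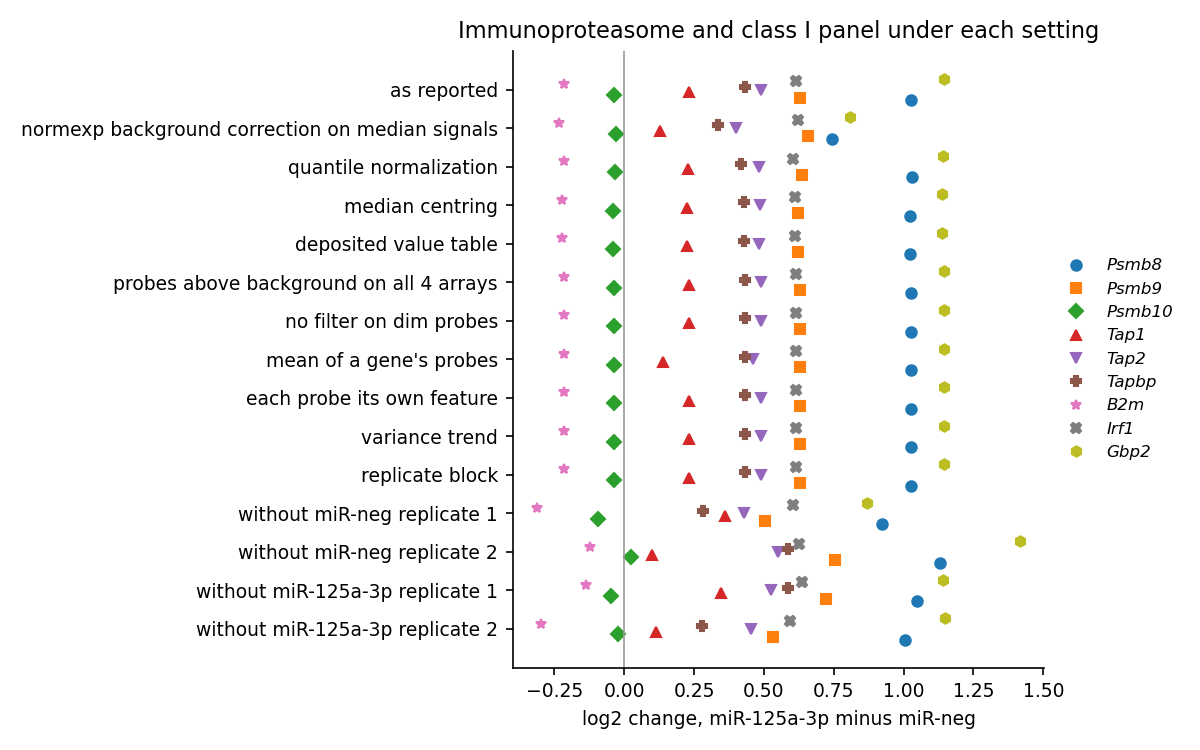
The log2 difference between miR-125a-3p and miR-neg for the 9 genes under each way of processing the arrays; each symbol is a gene and each line a setting. Psmb8 stays between 0.74 and 1.13, Gbp2 between 0.81 and 1.42, and Psmb10 crosses 0 without miR-neg replicate 2.

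Of 15 other settings, 8 changed the value of each gene (9 for Tap1 and Tap2). The others left it as it was. Over the settings that changed it, the log2 difference of Psmb8 lay between 0.74 and 1.13, that of Psmb9 between 0.50 and 0.75, that of Tap2 between 0.40 and 0.55 and that of Tapbp between 0.28 and 0.59. B2m lay below 0 in the 8 that changed it, from -0.31 to -0.12, and Psmb10 from -0.09 to 0.02. Whether any of the 9 genes passed the threshold depended on the setting. With normexp or with a variance trend, Gbp2, Irf1, Psmb8, Psmb9 and Tap2 passed, where 3.33% and 4.39% of all features passed in the higher direction. Where all 4 arrays had to be above background, and at an adjusted p of 0.1, Irf1 and Psmb8 passed, where 1.34% and 2.22% of features did.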

How the data were processed

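The authors deposited 1 Agilent Feature Extraction 10.7.3.1 file per array, per the file headers (the submitters' processing notes name it too), with processed intensity, background-subtracted and detrended within the array, and median spot and background intensity. Their deposited value table held log2 values. Set against the scanner values, 100% of its entries lay within 0.01 of log2 processed intensity less a constant for the array, so its scale, centring and direction are known. The medians of its columns were, in miR-neg, -4.07 and -4.15, and in miR-125a-3p, -4.08 and -4.14. Labelling used 100 ng of RNA and Cy3, per the labels' protocols.

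From the scanner files, control spots and flagged outlier spots were left out, log2 values were averaged over the spots of a probe, and the 75th percentile of the array was taken off. Of 45598 probes, 65 were left out for flagged spots and 27251 stood well above background on 2 or more arrays. RefSeq accessions named 21109 probes (46.3%) through the GRCr8 table. The probe with the highest mean stood for its gene, giving 23155 features. The comparison used limma 3.58.1 (R 4.3.3), with lmFit, eBayes and two-sided p-values adjusted by Benjamini-Hochberg over all features. The fit was checked on simulated data. An exact permutation test of 2 against 2 cannot go below 0.333. The number of arrays limits the precision.

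The 9 genes and the lists were chosen with earlier results of these data known. Named were all 9 genes with every probe, and of each pathway list (constitutive core, activators and assembly, loading, heavy chains, regulators, GTPases, other interferon-induced, class II) the genes past the threshold and up to 3 more by smallest p, with Psmb5, Psmb6, Psmb7 and Nlrc5 whatever their values (1 further gene of this rule is not reported here), and the 5 genes nearest in pattern to the one of the 9 with the largest difference. Some other genes were named after their values were seen: RT1-A1 to RT1-A3, Psme2, Pdia3, Tapbpl, Ifng, Cxcl10, the chromosome 20 neighbours, the undetected interferon genes and single genes of the marker lists (OPCs, microglia, astrocytes, vascular cells and neurons), which no naming rule covered. Alternatives covered background, scaling, filters, probes, variance and replicates.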

Additional observations from a re-analysis of the deposited data

How the results depend on the processing

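The count of 159 features past the threshold became 1601 with normexp on median signals (chosen after seeing the data, because the mean signal planned for it is not a column of these files), 83 under quantile normalization, 614 where all 4 arrays had to be above background, 2048 with a variance trend and 984 at an adjusted p of 0.1. It was 0 without a filter on dim probes, with 3956 features at an unadjusted p under 0.05, and with 1 array left out it ranged from 0 to 0, with 2748 to 4116 features at an unadjusted p under 0.05. The array left alone is there taken to spread as the remaining pair does. With a replicate block it was 0, with 3968 features at an unadjusted p under 0.05. That block is also the other axis of the slide. Deviations of same-numbered arrays correlated at 0.0505 over features. A correlation over all features cannot show whether single genes share an effect of replicate number or of place along that axis.

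Of the 9 genes, 0 passed in the main setting and with 1 array left out (0 to 0), 5 with normexp and 5 with a variance trend, and 2 (Irf1 and Psmb8) where all 4 arrays had to be above background and also at an adjusted p of 0.1. Of the pathway genes, 0 passed in the main setting and with 1 array left out (0 to 0), 4 with normexp (Canx, Psme1, RT1-DMa and RT1-M3-1), 7 with a variance trend (Canx, Psme1, RT1-DMa and RT1-M3-1 higher, Calr, Isg15 and Psme4 lower), 3 where all 4 arrays had to be above background and 4 at an adjusted p of 0.1. What causes these shifts was not tested. With normexp the log2 differences of Psmb8, Tap2 and Gbp2 were 0.74, 0.40 and 0.81 in place of 1.03, 0.49 and 1.14, further than the SD pooled over both groups, though for Gbp2 the move was smaller than the SD of its miR-neg arrays (0.39).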
